A study of Mus musculus with 15 samples.

Results

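The chromatin around 10 genes of T cell and natural killer (NK) cell development was examined in mouse haematopoietic stem cells (HSC) with normal, deleted or changed Mtor. The genes were the receptor gene Notch1, the transcription factor genes Tcf7, Gata3, Bcl11b, Tbx21 and Eomes, the inhibitor gene Id2, and the T cell genes Cd3e, Lck and Thy1. They were given as a list of 10 of the 21896 protein-coding genes placed by RefSeq on GRCm38.p6, the assembly of mm10. Every peak that overlapped a gene body or the 50 kb on either side of it was taken, which gave 22 of 17316 peaks in the wild-type list, 21 of 19189 in the knockout list and 41 of 28391 in the knock-in list. Merged where they overlapped or touched, these peaks formed 47 of the 32764 regions of the study.

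ATAC-seq, which marks DNA that a transposase can reach, was made from sorted HSC of adult mice, all given poly(I:C), with 1 library per genotype and 50000 cells in each. The wild-type control (WT) was Mx1-Cre-/-;mTORflox/flox, the knockout (KO) Mx1-Cre+/-;mTORflox/flox and the knock-in (KI) Mx1-Cre+/-;mTORflox/knockin. The Mx1 promoter that drives Cre responds to interferon and acts in many cell types, and Cre was present in KO and KI alone, so Cre and the Mtor alleles cannot be told apart in comparisons with WT. The labels mark WT and KO, but not KI, as analysed again, and that difference cannot be told apart from the knock-in allele. With 1 library per genotype every difference below is between libraries, without a replicate error, a test or a p-value.

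T and NK cells descend from HSC through progenitors that meet Notch ligands in the thymus or take the innate lymphoid path. Notch1 signalling turns on Tcf7 and Gata3, these turn on Bcl11b, and Bcl11b closes the alternatives to the T cell fate. Id2 holds E proteins in check in innate lymphoid and NK progenitors, while the T-box factors Tbx21 and Eomes direct NK and effector T cells. Cd3e and Lck belong to the signalling equipment of cells already committed to the T lineage. Thy1 is a surface marker of T cells and, at low level, of mouse HSC.

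Each peak is given with its position, its width, the score the authors deposited and its percentile, the percent of the peaks of the same list that scored at or below it. Scores rank peaks within 1 list and are not compared between lists, whose read depths are unknown, and percentiles in lists of different lengths show no change in accessibility. No peak of any list scored below 50. A start peak is a peak within 1 kb of a start site in the RefSeq promoter table, which need not hold every start of a gene. That table matched 9 of the 10 genes and had no entry for Thy1, for which a peak within 1 kb of either annotated end was counted instead. A bulk library cannot tell a region open in more of its cells from one more open in each cell.

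The labelled cell type was checked by start peaks at marker genes. Over all protein-coding genes 45.4% had one in WT, 45.3% in KO and 52.7% in KI. Of 12 HSC genes 9 had one in WT, 4 in KO and 8 in KI, and Gata2, Slamf1 and Ly6a had none in any list. The KO count of HSC genes was thus a smaller share than that of all genes. Of 8 B lymphoid genes 1 had one in WT, 0 in KO and 1 in KI, with none at Pax5. Of 7 matched erythroid genes (8 listed) 0, 2 and 3 had one, with none at Klf1 or Gata1, and of 8 granulocyte and monocyte genes 1, 0 and 5, with none at Elane. A peak overlapped the gene body of 10 HSC markers in WT, 8 in KO and 9 in KI, so for HSC markers the libraries were closer by this count. For the erythroid markers it was 0 in WT, 2 in KO and 5 in KI. For the granulocyte and monocyte markers it was 2, 0 and 5, and for the B lymphoid markers 2, 2 and 3. Of all protein-coding genes, 51.0% had a peak over the body in WT, 51.6% in KO and 59.9% in KI. The KI list held start peaks at more granulocyte and monocyte markers than WT or KO, at Mpo, Csf1r, S100a8, S100a9 and Lyz2. The part of other cells or of list length in the results below was not tested.

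Gata3 and Id2 had a start peak in all 3 lists, Notch1 in WT and KI, Bcl11b and Eomes in KO and KI, and Thy1, by the rule for its ends, in KI. Tcf7, Tbx21, Cd3e and Lck had none in any list. Start peaks were thus present at 3 genes in WT, 4 in KO and 6 in KI. Over all protein-coding genes the same rule found one at 45.4% in WT, 45.3% in KO and 52.7% in KI. A peak overlapped the gene body of 4 of the 10 genes in WT, 6 in KO and 9 in KI, against 51.0%, 51.6% and 59.9% of all genes.

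**Figure D1:**
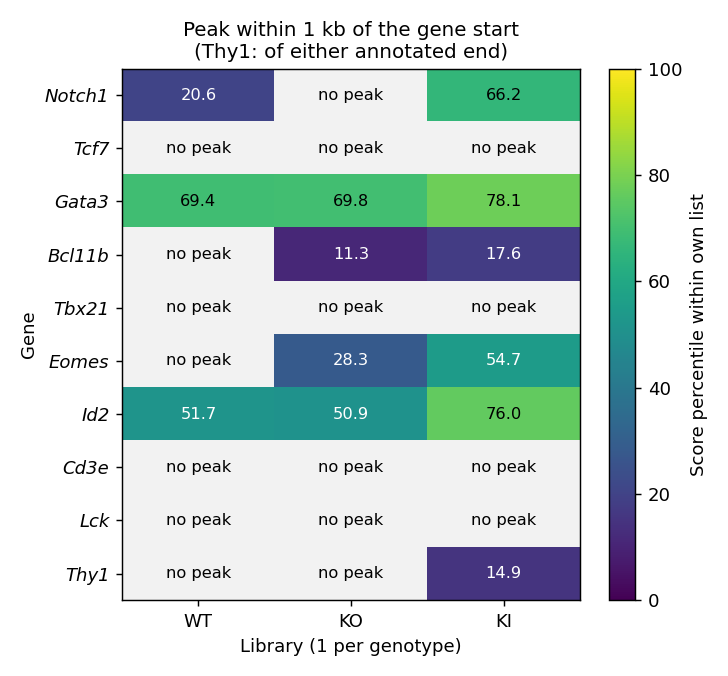
Start peaks of the 10 genes (rows) in the 3 libraries (columns), with the percentile of each peak's score within its own list as colour and number. Gata3 and Id2 carry a peak in every column, with percentiles between 50.9 and 78.1, and 4 genes carry none.

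The RefSeq promoter windows (GRCm38.p6, 250 bases before to 50 after the start, 5′ to 3′ on the strand of the gene) are shown for the 5 genes with a start peak and a table entry, and for Cd3e and both Lck starts as genes without one, so that their letters can be compared. Capitals mark matches, on either strand, to short letter motifs. The motif of RUNX factors was searched as TGTGGT and that of GATA factors as AGATAA. The motif of TCF-1 and LEF-1 was searched as CTTTGA, that of ETS factors as CCGGAA and that of T-box factors as TCACAC. The cyclic AMP response element (CRE) was searched as TGACGTCA and the GC box of SP factors as GGGCGG. The E-box, searched as CANNTG, is not marked, and matches of different motifs may overlap.
Notch1 (chr2:26503773-26504072, minus strand): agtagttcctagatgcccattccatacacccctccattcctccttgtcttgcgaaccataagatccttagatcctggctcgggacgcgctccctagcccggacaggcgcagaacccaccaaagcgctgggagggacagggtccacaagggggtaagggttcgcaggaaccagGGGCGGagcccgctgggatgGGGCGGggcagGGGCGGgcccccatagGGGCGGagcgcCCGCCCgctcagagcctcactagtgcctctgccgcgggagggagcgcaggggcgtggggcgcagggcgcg
Gata3 (chr2:9878551-9878850, minus strand): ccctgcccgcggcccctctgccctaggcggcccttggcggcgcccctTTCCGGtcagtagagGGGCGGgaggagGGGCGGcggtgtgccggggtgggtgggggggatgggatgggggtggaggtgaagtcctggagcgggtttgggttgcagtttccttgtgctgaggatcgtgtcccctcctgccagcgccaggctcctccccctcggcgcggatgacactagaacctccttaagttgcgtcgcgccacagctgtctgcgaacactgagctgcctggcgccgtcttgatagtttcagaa
Id2 (chr12:25096043-25096342, minus strand): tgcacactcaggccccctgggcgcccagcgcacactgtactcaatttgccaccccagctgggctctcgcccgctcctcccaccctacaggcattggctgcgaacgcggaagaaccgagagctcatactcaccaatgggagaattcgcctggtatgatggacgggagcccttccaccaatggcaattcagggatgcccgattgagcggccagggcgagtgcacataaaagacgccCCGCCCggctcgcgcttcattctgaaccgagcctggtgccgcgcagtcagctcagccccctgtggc
Bcl11b (chr12:108003365-108003664, minus strand): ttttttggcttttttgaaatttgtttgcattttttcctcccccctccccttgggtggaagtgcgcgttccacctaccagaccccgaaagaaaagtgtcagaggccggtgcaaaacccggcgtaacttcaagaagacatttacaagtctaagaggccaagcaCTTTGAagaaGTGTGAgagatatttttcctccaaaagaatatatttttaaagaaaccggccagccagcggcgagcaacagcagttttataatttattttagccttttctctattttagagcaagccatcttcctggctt
Eomes (chr9:118477939-118478238, plus strand): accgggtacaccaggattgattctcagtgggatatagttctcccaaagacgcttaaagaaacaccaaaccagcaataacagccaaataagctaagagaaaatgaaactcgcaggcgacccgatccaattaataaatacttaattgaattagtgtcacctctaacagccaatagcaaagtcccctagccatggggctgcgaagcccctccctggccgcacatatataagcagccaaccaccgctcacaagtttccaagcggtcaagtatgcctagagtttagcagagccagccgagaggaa
Cd3e (chr9:45009562-45009861, minus strand): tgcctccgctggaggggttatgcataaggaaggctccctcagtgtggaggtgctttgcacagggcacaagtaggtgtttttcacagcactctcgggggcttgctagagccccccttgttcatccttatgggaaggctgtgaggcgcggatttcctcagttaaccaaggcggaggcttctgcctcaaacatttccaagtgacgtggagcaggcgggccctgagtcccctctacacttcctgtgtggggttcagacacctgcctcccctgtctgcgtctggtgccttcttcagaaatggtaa
Lck distal (chr4:129573592-129573891, minus strand): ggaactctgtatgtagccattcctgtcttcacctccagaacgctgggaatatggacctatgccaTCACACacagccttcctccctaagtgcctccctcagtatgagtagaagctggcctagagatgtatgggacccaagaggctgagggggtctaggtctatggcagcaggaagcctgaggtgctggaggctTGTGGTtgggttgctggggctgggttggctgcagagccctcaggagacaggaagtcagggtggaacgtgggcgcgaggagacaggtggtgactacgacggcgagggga
Lck proximal (chr4:129558323-129558622, minus strand): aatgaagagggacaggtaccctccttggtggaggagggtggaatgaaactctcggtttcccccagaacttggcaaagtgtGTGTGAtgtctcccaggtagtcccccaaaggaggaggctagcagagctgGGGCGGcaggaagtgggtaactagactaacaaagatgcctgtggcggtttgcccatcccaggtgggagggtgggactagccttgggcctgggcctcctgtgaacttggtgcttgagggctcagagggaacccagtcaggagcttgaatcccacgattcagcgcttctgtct

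Among these windows, Notch1 held 5 GC boxes, from position -78 to -20 counted from the start as 1 with no 0, Gata3 2 and Id2 1. Windows without a start peak that are not printed held them too, Tbx21 3, the outer Tcf7 start 2 and the inner Tcf7 start 1. GC boxes stood in 35.7% of the 32851 windows of the table. The Gata3 window held 1 ETS match at -203 and the inner Tcf7 window 1 at -24, and ETS matches stood in 14.9% of windows. Bcl11b held a TCF/LEF match at -89 and a T-box match at -79, found in 16.0% and 14.5% of windows. The distal Lck start had a RUNX match at -58, found in 16.8% of windows, and a T-box match at -186, and the proximal Lck start had a T-box match at -170 and a GC box at -121. The E-box stood in 72.3% of all windows and in 8 of the 11 windows of the genes described here. No GATA or CRE letters were found in the 11 windows, against 11.2% and 1.79% of all windows. These matches are descriptions of letters and were not tied to binding.

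A start peak within 1 kb need not overlap the printed window. One did at Id2 in every list, at Notch1 in WT and KI and at Gata3 in WT alone. None did at Bcl11b or Eomes in any list. The 5 printed windows with a start peak had CpG dinucleotides at 0.61 to 0.71 of the number expected from their C and G content. The median was 0.57 over 21262 windows of protein-coding genes. Those of Cd3e (0.33) and Lck (0.29 distal, 0.21 proximal) were lower. Bcl11b and Eomes combined this with a GC content of only 43.0% and 47.3%, below the median of 56.3%, while Gata3 (67.3%), Notch1 (68.3%) and Id2 (63.3%) were above it. The outer Tcf7 start, with a CpG ratio of 1.03, and the Tbx21 start, with 0.75, were above all of these and had no start peak in any list. The inner Tcf7 start had a ratio of 0.55 and no start peak. Of the 7153 windows with a ratio of 0.75 or more, 774 (10.8%) had no start peak in any list, and of the 5798 below 0.25, 5222 (90.1%) had none. Between these, 1111 of the 4424 windows from 0.5 to below 0.75 (25.1%) had none. This class held the 5 printed windows with a start peak and the inner Tcf7 start. From 0.25 to below 0.5, the class of Cd3e and distal Lck, 2559 of 3887 (65.8%) had none.

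**Figure D2:**
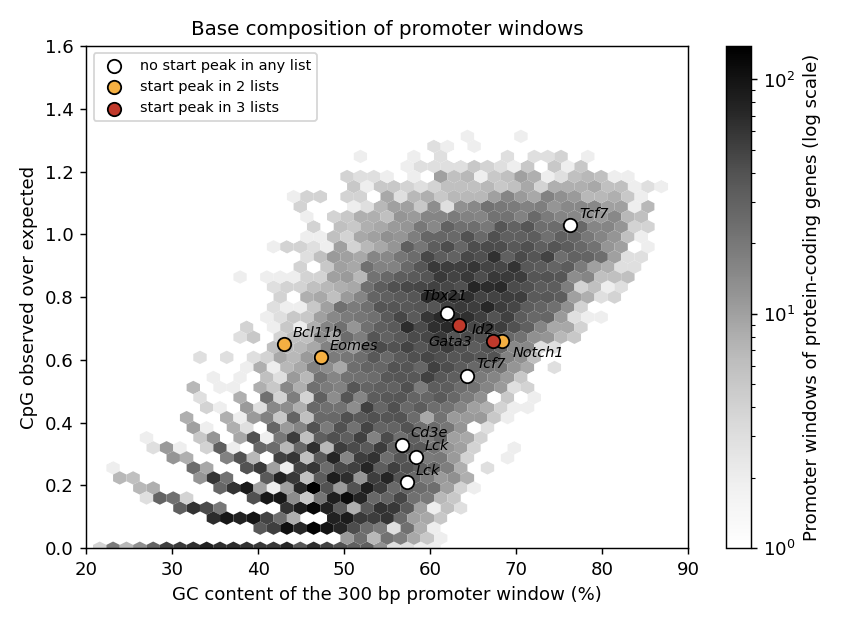
CpG observed over expected (y axis) against GC content in percent (x axis) for the 300 bp promoter windows of protein-coding genes (grey, darker where more windows fall, log scale). Points are the windows of the 10 genes, without Thy1, coloured by the number of lists with a peak within 1 kb of that start. Cd3e and Lck lie low with ratios of 0.21 to 0.33, and the outer Tcf7 start lies at the upper right at 1.03 without a start peak.

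Notch1 encodes the receptor whose ligands in the thymus start the T cell programme. It spans chromosome 2 from 26457902 to 26503822 and is read from the higher coordinate. Its start was covered in WT (26503694 to 26504144, 451 bp, score 63.02, percentile 20.6) and in KI (26503417 to 26504125, 709 bp, score 131.78, percentile 66.2), and no KO peak lay within 9523 bp of it. The WT peak was a weak one in its list. Of WT peaks in the lowest 25% of scores, 57.4% had no overlap in KO. The lncRNA gene Gm35978 lies beside Notch1, and the merged start region overlapped it too.

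Inside the gene, 19810 bp downstream of the start, all 3 lists had a peak near the middle of their score range. These were in WT (26483265 to 26483925, 661 bp, score 82.97, percentile 41.7), in KO (26483348 to 26483964, 617 bp, score 85.10, percentile 48.3) and in KI (26483245 to 26484012, 768 bp, score 107.90, percentile 57.4). KI alone had a second intragenic peak, 10357 bp downstream (26493010 to 26493465, 456 bp, score 58.65, percentile 15.5). Between 9437 and 9523 bp upstream, a region was shared by WT (26513259 to 26513752, 494 bp, score 89.29, percentile 46.7), KO (26513345 to 26513624, 280 bp, score 52.74, percentile 5.33) and KI (26513332 to 26513702, 371 bp, score 68.56, percentile 29.6). It overlapped no annotated gene. The KO peak there was near the lowest score of its list.

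The strongest peaks of the Notch1 window belonged to a neighbour. At the start of Sec16a, an endoplasmic reticulum exit site gene, peaks stood in WT (26444962 to 26446215, 1254 bp, score 380.86, percentile 98.0), KO (26444945 to 26446121, 1177 bp, score 336.15, percentile 97.7) and KI (26444859 to 26446250, 1392 bp, score 449.33, percentile 97.4). All 3 stood at percentile 97.4 or above. The start of Inpp5e, which also touches Sec16a, had a peak in WT (26408985 to 26409528, 544 bp, score 82.73, percentile 41.5) and KI (26408989 to 26409421, 433 bp, score 108.96, percentile 57.9) and none in KO. The KO list thus lacked 2 of the 5 WT regions of this window, the Notch1 start and the Inpp5e start.

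Tcf7 encodes TCF-1, a factor switched on early by Notch signalling. It spans chromosome 11 from 52246527 to 52283383. Neither of its 2 listed starts, 52283014 and 52282595, had a peak within 1 kb or within 2500 bp in any list. The nearest peak to a start was 9113 bp away in KI, 50184 bp in WT and 77592 bp in KO. The KO list had no peak in the whole Tcf7 window, as had 23.6% of all genes.

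The Tcf7 body held peaks in KI alone, at 9113 bp (52273283 to 52273482, 200 bp, score 64.90, percentile 25.3) and 20291 bp (52262080 to 52262304, 225 bp, score 77.23, percentile 38.3) downstream of the nearer start. Both were narrow and below the median of the KI list. KI alone also had peaks upstream, at 22242 bp (52305256 to 52305660, 405 bp, score 56.42, percentile 11.4) and at 35339 bp (52318353 to 52318806, 454 bp, score 84.23, percentile 44.1). The second of these touched the lncRNA gene Gm30217. The only WT peak of the window lay at the start of Skp1, a ubiquitin ligase subunit gene past the far end of Tcf7 (52231876 to 52232411, 536 bp, score 90.48, percentile 47.5), and KI had a peak there (52231585 to 52232245, 661 bp, score 152.61, percentile 71.6) as well.

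Gata3 encodes the GATA factor of T cell commitment and T helper 2 cells. Its gene record on chromosome 2, from 9857078 to 9887953, reaches 5′ of the listed start at 9878600. A peak stood at this start in WT (9878314 to 9880016, 1703 bp, score 137.44, percentile 69.4), KO (9878971 to 9880080, 1110 bp, score 122.66, percentile 69.8) and KI (9879069 to 9879982, 914 bp, score 184.01, percentile 78.1). All 3 lay between percentiles 69.4 and 78.1 of their lists. The WT peak covered the start, whereas the KO peak began 371 bp and the KI peak 469 bp upstream of it. The WT peak was the widest in the windows of the 10 genes. It also was the only WT peak in the Gata3 window.

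The other Gata3 peaks were weak and each stood in 1 list. KO had one 7038 bp downstream of the start, in the gene body (9871103 to 9871562, 460 bp, score 55.19, percentile 9.87), and one 27270 bp upstream at the lncRNA gene Gm13262 (9905870 to 9906325, 456 bp, score 57.43, percentile 13.8). KI had them at 10512 bp upstream, inside the lncRNA gene 9230102O04Rik (9889112 to 9889495, 384 bp, score 52.99, percentile 5.26), at 18457 bp (9897057 to 9897422, 366 bp, score 51.43, percentile 2.57) and at 25305 bp (9903905 to 9904215, 311 bp, score 53.67, percentile 6.45). The highest of the 5 stood at percentile 13.8 of its list.

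Bcl11b encodes the factor that seals T cell commitment. It spans chromosome 12 from 107910403 to 108004145, and its 93743 bp and both flanks hold no other annotated gene. WT had no peak in this window. The nearest WT peak to the start was 167061 bp away, and 14.1% of genes were at least that far from a WT peak. KO (108003961 to 108004210, 250 bp, score 56.02, percentile 11.3) and KI (108003915 to 108004213, 299 bp, score 59.96, percentile 17.6) each had 1 peak, about 500 bp upstream of the listed start and at the outer edge of the gene record (547 bp in KO and 501 bp in KI). Both were narrow and in the lowest 25% of scores. In that class 65.0% of KO and 83.1% of KI peaks had no overlap in WT. With the lists cut to equal length the KO peak stayed and the KI peak did not.

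Eomes and Tbx21 encode the T-box factors of NK cells and cytotoxic T cells. Eomes spans chromosome 9 from 118478186 to 118486132. WT had no peak at its start or in its body, and its nearest peak was 27860 bp from the start. KO (118478890 to 118479378, 489 bp, score 66.06, percentile 28.3) had a peak 701 bp and KI (118479094 to 118479500, 407 bp, score 102.20, percentile 54.7) a peak 905 bp downstream of the start, inside the gene. The KI peak stood above the median of its list. The promoter window printed above was not overlapped by either.

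Past the end of Eomes, 11403 bp from the start, KO (118489726 to 118489920, 195 bp, score 63.23, percentile 23.9) and KI (118489592 to 118490015, 424 bp, score 54.76, percentile 8.15) shared a second region without a WT peak, at the lncRNA gene Gm33460. The third region lay at the nearer annotated end of Golga4, a Golgi protein gene, and had a peak in WT (118506049 to 118506499, 451 bp, score 83.29, percentile 42.1), KO (118506097 to 118506514, 418 bp, score 101.80, percentile 59.6) and KI (118506015 to 118506538, 524 bp, score 77.08, percentile 38.2). Both Eomes regions nearer to the gene thus had peaks in KO and KI and none called in WT. The neighbour's end had a peak in all 3. At a score minimum of 100 the Eomes start peak was left in KI alone, and within 500 bp of the start there was none. With lists of equal length both start peaks stayed. In the score classes of the start peaks, 47.1% of KO and 32.1% of KI peaks had no overlap in WT. In those of the second region the shares were 65.0% and 83.1%.

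Tbx21, which encodes T-bet, spans chromosome 11 from 97098007 to 97115331. Its start had no peak within 11501 bp in KI, 26645 bp in WT or 64487 bp in KO. KI alone had a peak in the gene body, 11501 bp downstream of the start (97103142 to 97103830, 689 bp, score 100.35, percentile 53.9). That peak stood above the median of the KI list. Its score alone kept it at equal list length, where the lowest KI score was 77.95, and barely at a score minimum of 100. KI alone also had a weak peak 32104 bp downstream (97082936 to 97083227, 292 bp, score 51.71, percentile 3.10).

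The other peaks of the Tbx21 window lay at neighbours. WT alone had one inside Tbkbp1, an adaptor gene of TBK1 signalling (97141976 to 97142570, 595 bp, score 62.60, percentile 20.1). The start of Osbpl7, an oxysterol-binding protein gene, had a peak in KO (97050577 to 97050844, 268 bp, score 55.51, percentile 10.3) and in KI (97050702 to 97051027, 326 bp, score 88.04, percentile 46.6) and none in WT. No region of this window was shared by all 3 lists.

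Id2 encodes an inhibitor of E protein transcription factors that is needed for NK cells and other innate lymphoid cells. It is the shortest of the 10 genes and spans chromosome 12 from 25093799 to 25096092. Peaks covered its start in WT (25095746 to 25096476, 731 bp, score 97.54, percentile 51.7), KO (25096053 to 25096727, 675 bp, score 88.57, percentile 50.9) and KI (25095932 to 25096563, 632 bp, score 172.40, percentile 76.0). The WT and KO peaks were close to the median of their lists and the KI peak was in the top 25% of its list. Each overlapped the printed promoter window. At a score minimum of 100 the Id2 start peak was left in KI alone.

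A region 23196 bp upstream of Id2, away from annotated genes, had a peak in WT (25119328 to 25119809, 482 bp, score 57.94, percentile 13.2) and KO (25119288 to 25119785, 498 bp, score 84.01, percentile 47.5) and none in KI. Such regions were few in the study (430 of 32764, 1.31%), and the windows of the 10 genes held 2 of them, this one and one at Lck. KI had 2 weak peaks close to the gene, 2648 bp upstream (25098740 to 25099151, 412 bp, score 52.49, percentile 4.46) and 3386 bp downstream (25092287 to 25092706, 420 bp, score 52.96, percentile 5.21), that the other lists lacked. It also had one inside Kidins220 (25054688 to 25054887, 200 bp, score 64.90, percentile 25.3).

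Cd3e encodes the epsilon chain of the CD3 complex, which transmits the signal of the T cell receptor. It spans chromosome 9 from 44998735 to 45009663. It was the only gene of the 10 with no peak over its body in any list, and the nearest peak to its start was 22659 bp away. Its neighbours Cd3d and Cd3g, which encode the delta and gamma chains, form a cluster with it. Within Cd3d, toward its higher-coordinate end, a region was shared by WT (44986312 to 44986824, 513 bp, score 121.74, percentile 63.4), KO (44986289 to 44986795, 507 bp, score 113.02, percentile 65.6) and KI (44986286 to 44986952, 667 bp, score 146.60, percentile 70.2). These peaks ranked alike, between percentiles 63.4 and 70.2. KI alone had a weak peak inside Cd3g (44975382 to 44975685, 304 bp, score 55.93, percentile 10.5). The start of Ube4a, a ubiquitin ligase gene, had a peak in WT (44965353 to 44965955, 603 bp, score 78.94, percentile 38.3) and KI (44965409 to 44965934, 526 bp, score 144.97, percentile 69.8) and none in KO.

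Lck encodes the kinase that phosphorylates the CD3 chains. It spans chromosome 4 from 129548344 to 129573641 and has a distal start at 129573641 and a proximal start at 129558372. Neither start had a peak within 1 kb, but a region lay within 2500 bp of each. Downstream of the proximal start, in the gene body, peaks stood in WT (129556392 to 129556867, 476 bp, score 55.80, percentile 9.83), KO (129555944 to 129556720, 777 bp, score 90.26, percentile 52.2) and KI (129556289 to 129556748, 460 bp, score 133.98, percentile 66.9). They began between 1505 and 1652 bp from that start. Their percentiles spanned 57.1 points, and 5.06% of the 12282 regions with a peak in all 3 lists spanned as much. The median span of such regions was 19.8 points. Among the 12 such regions in the windows of the 10 genes, the Lck body region had the second widest span.

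Upstream of the distal start, WT (129575374 to 129575764, 391 bp, score 62.01, percentile 19.3) and KO (129575160 to 129575645, 486 bp, score 57.78, percentile 14.5) had a weak peak, 1733 and 1519 bp away, and KI had none. Further upstream, 11390 bp from the distal start, a region held a peak in KO (129585031 to 129585428, 398 bp, score 85.23, percentile 48.4) and KI (129585229 to 129585471, 243 bp, score 98.75, percentile 53.0) and none in WT. It overlapped no annotated gene.

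The remaining Lck peaks lay in a dense stretch of neighbours. At the nearer annotated end of Hdac1, a histone deacetylase gene, peaks were strong in WT (129542473 to 129543085, 613 bp, score 206.21, percentile 85.3), KO (129542434 to 129543047, 614 bp, score 169.90, percentile 83.0) and KI (129542427 to 129543038, 612 bp, score 345.89, percentile 94.0). The start of Marcksl1, a MARCKS-like protein gene, had a peak in WT (129513418 to 129513997, 580 bp, score 127.04, percentile 65.5) and KI (129513347 to 129513880, 534 bp, score 122.79, percentile 63.2). The listed start of Tmem234, beside an annotated end of the translation initiation factor subunit gene Eif3i, had one in WT (129600665 to 129601107, 443 bp, score 59.76, percentile 16.0) and KI (129600430 to 129600937, 508 bp, score 147.64, percentile 70.5). KO lacked both of these starts.

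Farther out, 57128 bp downstream of the proximal start and in no annotated gene, all 3 lists had a peak, in WT (129500483 to 129501244, 762 bp, score 66.05, percentile 24.6), KO (129500713 to 129501233, 521 bp, score 116.59, percentile 67.3) and KI (129500536 to 129501243, 708 bp, score 143.92, percentile 69.5). WT alone had a weak peak at Dcdc2b (129608746 to 129609113, 368 bp, score 61.05, percentile 18.0). KI alone had one at the listed start of Iqcc, beside an annotated end of Ccdc28b (129618811 to 129619409, 599 bp, score 78.30, percentile 39.2). With 7 peaks in WT, 5 in KO and 7 in KI, Lck had the most of the 10 genes in each list.

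Thy1 encodes a surface glycoprotein used to mark T cells and, at low level, mouse HSC. It spans chromosome 9 from 44043384 to 44048579, and its strand is not given in the table used. WT and KO had no peak in the gene. KI had 1 peak inside it, 651 bp from the higher-coordinate end (44047665 to 44047928, 264 bp, score 58.28, percentile 14.9). This peak was weak, narrow and lost when the KI list was cut to the length of the WT list.

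The other Thy1 peaks overlapped Usp2, a deubiquitinating enzyme gene. At its lower-coordinate end, 44067021, peaks stood in WT (44066696 to 44067221, 526 bp, score 66.56, percentile 25.2), KO (44066738 to 44067179, 442 bp, score 126.53, percentile 71.1) and KI (44066741 to 44067157, 417 bp, score 325.65, percentile 93.0). Their percentiles spanned 67.8 points, and 166 of the 12282 regions with a peak in all 3 lists (1.35%) spanned as much or more. The lncRNA gene Gm39325 overlaps this region as well.

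At a listed Usp2 start, peaks stood in WT (44084611 to 44085053, 443 bp, score 75.50, percentile 35.2), KO (44084807 to 44085171, 365 bp, score 74.79, percentile 38.6) and KI (44084782 to 44085107, 326 bp, score 53.08, percentile 5.40). KI had the lowest of the 3 percentiles at this start and the highest at the lower-coordinate end of the same gene. KI alone had peaks farther into Usp2 (44088788 to 44089282, 495 bp, score 67.45, percentile 28.5) and toward its higher-coordinate end (44094832 to 44095208, 377 bp, score 75.20, percentile 36.4).

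**Figure D3:**
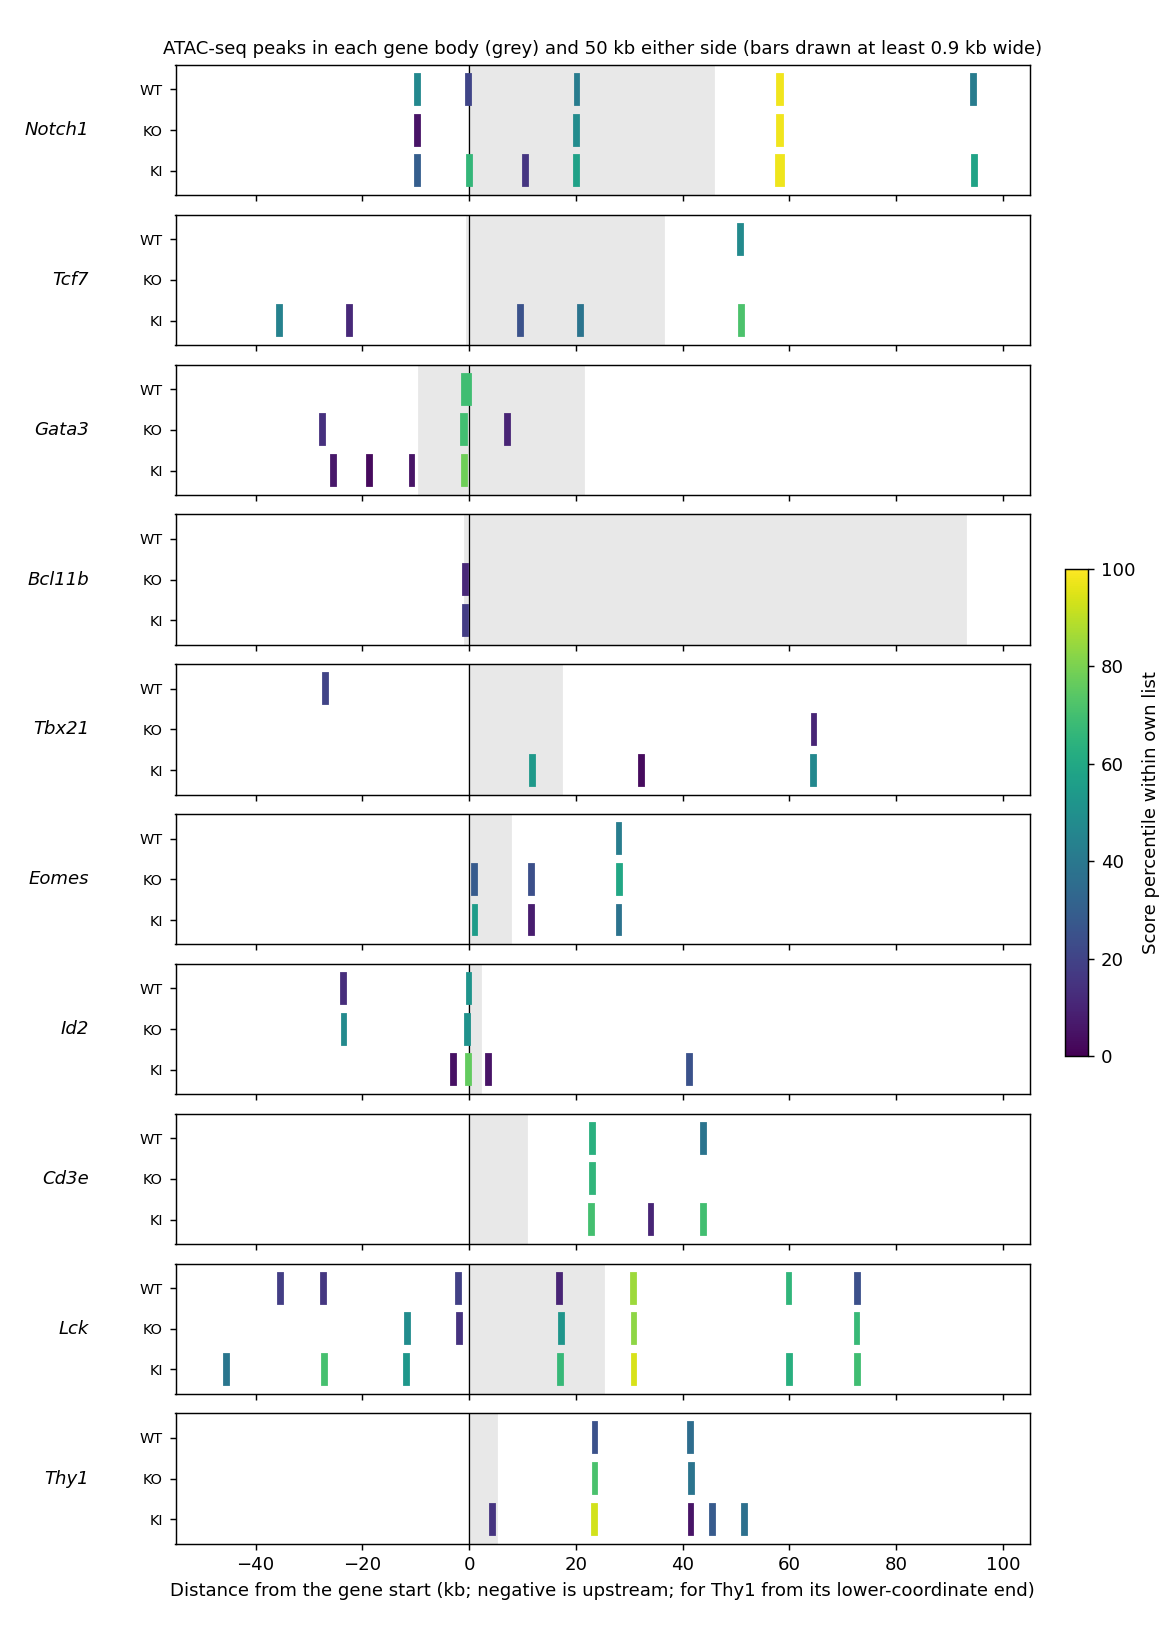
Every peak of the WT, KO and KI lists (3 tracks per gene) in the body (grey) of the 10 genes and 50 kb either side, by distance in kb from the gene start (black line; the outermost listed start, for Thy1 the lower-coordinate end) and coloured by percentile within its own list. Bars are drawn at least 0.9 kb wide so that narrow peaks can be seen. The Tcf7 row has no KO peak and the Bcl11b row no WT peak, and the Cd3e body is empty in all 3 tracks.

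Most of the peaks thus lay outside the 10 genes themselves. In flanks, and not within 1 kb of the start of the gene in question, lay 17 peaks of WT, 14 of KO and 29 of KI. Of these, 9 in WT, 5 in KO and 11 in KI were within 1 kb of the start of another protein-coding gene, or of either annotated end where no start is listed. The peaks of the 10 windows were seldom strong. In the top 25% of their list stood 2 peaks in WT, 2 in KO and 5 in KI, where a whole list has 25% by definition. The median percentile was 39.9 in WT, 48.3 in KO and 39.2 in KI. In WT and KO both strong peaks were at Sec16a and Hdac1. In KI 2 of the 5 were the Gata3 and Id2 starts, and the others lay at Sec16a, Hdac1 and Usp2.

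**Figure D4:**
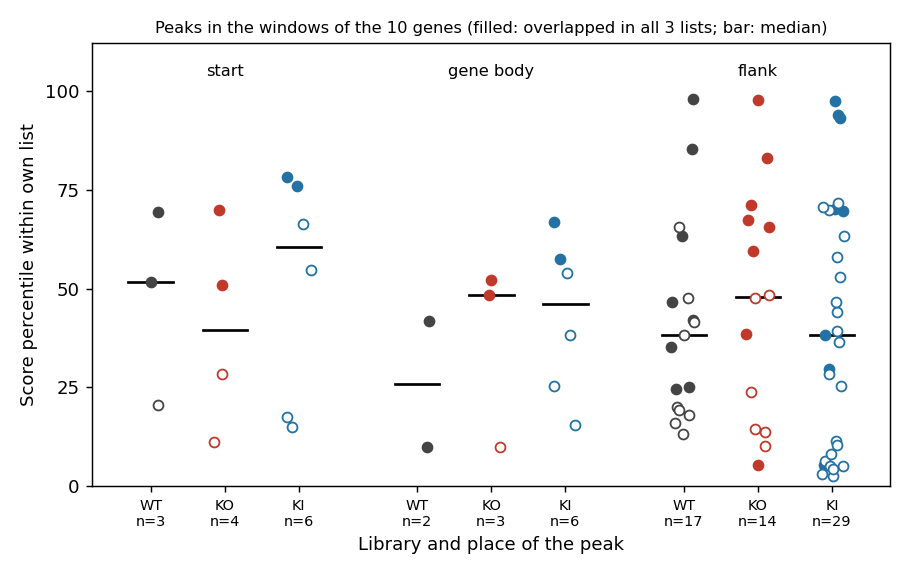
Percentile within its own list (y axis) of every peak in the windows of the 10 genes, by library and by place at a start, in the rest of the gene body or in the flank (x axis, with the number of peaks). Filled points overlap peaks of both other lists, open points do not, and bars are medians. The points above percentile 80 are all in the flanks, at Sec16a and Hdac1 and, in KI, Usp2.

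The median gene of the 10 had 1.5 peaks in its window in WT, 2 in KO and 4 in KI, against 2, 2 and 3 over all protein-coding genes. Per Mb of window there were 17.2 peaks in WT, 16.5 in KO and 32.1 in KI, against 9.50, 10.4 and 15.3 over the merged windows of all genes. The 2 measures are not alike. Merging counts a stretch near several genes once, whereas the median over genes counts it for each of them. Lck and Notch1 held 7 and 5 of the 22 WT peaks, 5 and 3 of the 21 KO peaks and 7 and 6 of the 41 KI peaks. The KI list is the longest of the 3, and its count in these windows fell from 41 to 21 when every list was cut to 17316 peaks, beside 22 in WT and 20 in KO.

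WT and KO were set side by side to show which peaks differ between floxed Mtor without and with Cre. Of the 22 WT peaks, 8 had no overlap in KO (36.4%, Wilson 95% interval 19.7 to 57.0), against 25.5% of the whole WT list. The interval covers counting error over peaks only. Those 8 were the Notch1 start, 5 listed starts of neighbours (Skp1, Inpp5e, Ube4a, Marcksl1 and Tmem234) and the peaks at Tbkbp1 and Dcdc2b. In the other direction, 7 of 21 KO peaks had no overlap in WT (33.3%, 17.2 to 54.6), against 32.4% of the whole KO list. They were the starts of Bcl11b, Eomes and Osbpl7, the second Eomes region, the Lck region 11390 bp upstream and both weak Gata3 peaks. Of the 3 genes with a WT start peak 1, Notch1, had none in KO, and over all genes 10.3% of those with a WT start peak had none in KO. Of the 7 without a WT start peak, Bcl11b and Eomes had one in KO, and over all genes 8.35% did.

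WT and KI were set side by side for the allele pair with 1 knock-in copy. Of the 22 WT peaks, 4 had no overlap in KI (18.2%, 7.31 to 38.5), against 13.1% of the whole WT list. They were the peaks at Tbkbp1 and Dcdc2b, which KO also lacked, the Id2 region 23196 bp upstream and the Lck region above the distal start. All 3 WT start peaks were present in KI, and over all genes 2.93% of those with one in WT had none in KI. Of the 41 KI peaks, 23 had no overlap in WT (56.1%, 41.0 to 70.1), against 46.5% of the whole KI list. With lists of equal length the difference between the directions was not seen. Then 6 of 21 KI peaks had no overlap in WT and 7 of 22 WT peaks none in KI. These counts have no whole-list share at the same length beside them. Bcl11b, Eomes and Thy1, of the 7 genes without a WT start peak, had one in KI, against 15.7% over all genes. Gained and lost peaks in KO and in KI are counted against the same WT list.

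The comparison of KO with KI sets the deleted gene against the knock-in allele, in a series titled as a model of what mTOR does apart from its kinase activity. Of the 21 KO peaks, 4 had no overlap in KI (19.0%, 7.67 to 40.0), against 16.0% of the whole KO list. They were both weak Gata3 peaks, the Id2 region 23196 bp upstream and the Lck region above the distal start. Of the 41 KI peaks, 24 had no overlap in KO (58.5%, 43.4 to 72.2), against 43.2% of the whole KI list. The Notch1 start, the Tbx21 body peak and all 5 KI peaks of the Tcf7 window were among them. The peaks without an overlap ranked lower than the others. For KI peaks absent from WT the median percentile was 17.6, against 69.6 for those shared, and for KI peaks absent from KO it was 26.9 against 57.4. With lists of equal length, 9 of 21 KI peaks had no overlap in KO and 8 of 20 KO peaks none in KI. The whole-list shares at that length are not given here, so these counts cannot be set against them.

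**Figure D5:**
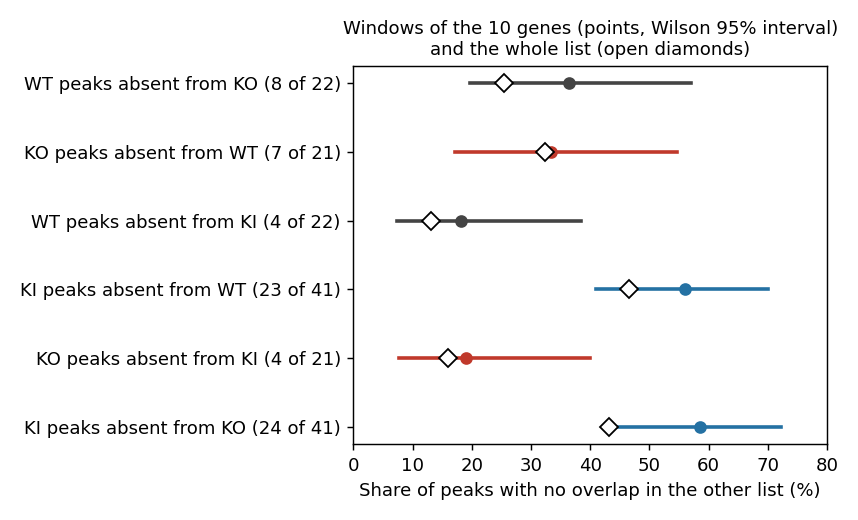
Share of peaks without an overlap of at least 1 bp in the other list (x axis, percent) for each list and direction (y axis), in the windows of the 10 genes (points with Wilson 95% intervals, counting error over peaks only) and in the whole list (open diamonds). The whole-list share lies inside the interval in 5 of the 6 directions and just below it, 43.2 against 43.4, for KI peaks absent from KO.

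Of the 47 merged regions, 12 (25.5%) had a peak in all 3 lists, against 37.5% of the regions of the study. KI alone held 18 (38.3%, against 29.3%), KO and KI without WT 5 (10.6%, against 10.7%), WT and KI without KO 6 (12.8%, against 7.71%), WT and KO without KI 2 (4.26%, against 1.31%), WT alone 2 (4.26%, against 5.52%) and KO alone 2 (4.26%, against 7.99%). Of the 6 regions with peaks in WT and KI and none in KO, 5 were listed starts of neighbouring genes and the sixth was the Notch1 start. Of the 12 regions shared by all lists, 4 lay at the start or in the body of the 10 genes, at the Gata3 and Id2 starts and inside Notch1 and Lck. Another 4 lay at neighbours, at the listed starts of Sec16a and Usp2 and at annotated ends of Golga4 and Hdac1.

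A wider list of 46 other T and NK genes was read in the same way, with a listed start for 34 and either annotated end for 12. A start peak was present at 15 in WT, 12 in KO and 18 in KI, beside 45.4%, 45.3% and 52.7% of all protein-coding genes. The 11 with one in all 3 lists included the transcription factor genes Runx3, Ikzf1, Tcf3, Lef1 and Prdm1, the kinase gene Fyn and the adaptor gene Lat. In no list was there one at 26, among them the receptor genes Cd3d, Cd3g, Cd4, Cd8a and Cd5, the recombinase genes Rag1 and Rag2 and the killing genes Gzmb and Prf1. These 26 shared the pattern of Tcf7, Tbx21, Cd3e and Lck.

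By the pattern of start peaks over the 3 libraries, these 11 were most like Gata3 and Id2. Hes1, a target of Notch signalling, and Tox shared the pattern of Notch1, with percentiles of 44.8 and 36.7 in WT, 69.3 and 51.4 in KI and no KO peak, both by the rule for either end. Zeb2, a repressor needed by maturing NK cells, shared that of Bcl11b and Eomes (percentile 12.6 in KO and 49.6 in KI). Cd28 (14.0), Stat4 (11.1) and Lcp2 (7.74) had a start peak in KI alone, as had Thy1. Nfil3, a factor that NK progenitors need, had one in WT alone (15.4). Id3, a relative of Id2, was named after its value was seen and also had one in WT alone (0.705). Over all 21896 genes the pattern of Notch1 was found at 804, that of Bcl11b and Eomes at 779, that of Gata3 and Id2 at 8854 and no start peak in any list at 9854.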

How the data were processed

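The 3 ATAC-seq libraries (WT, KO and KI, 1 each) were read from deposited BED lists with 5 columns, one per library. Column 5 is a score that the authors deposited with each peak. Its form is that of MACS, 10 × −log10 of a p-value, as read from the peak names and the values. The build (mm10) and CASAVA are named in the submitters' processing notes. Not given in the sources used here: aligner, caller version, duplicate removal, read shift, control and filters. The read depth is unknown. The 12 RNA samples were not analysed here.

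Peaks were assigned to gene bodies with 50 kb flanks from the RefSeq table (GRCm38.p6). Starts came from the RefSeq promoter table for 17491 of 21896 protein-coding genes, and either annotated end was used for 4405. That table gives no exons or introns. An overlap of 1 bp counted as shared. Positions are 1-based. Shares have Wilson 95% intervals over peaks, which cover counting error only. The genes and lists were chosen with earlier results of these data known. Named were the 10 genes, genes nearest to a described peak, up to 8 other T and NK genes whose start pattern differed between lists (highest score first), and genes with the same start pattern as one of the 10. Some genes that this rule names are not reported here. The alternatives were flanks of 10 and 100 kb, a score minimum of 100, equal list lengths, start distances of 500 and 2500 bp, an overlap of 50% and widening by 500 bp. The overlap and window code was tested on simulated data. Python 3.11.15, pandas 2.3.3, numpy 2.4.6, scipy 1.17.1 and matplotlib 3.10.9 were used.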

Additional observations from a re-analysis of the deposited data

How the results depend on the processing

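Counts below are of peaks in the windows of the 10 genes. A flank of 10 kb left 8 WT, 11 KO and 19 KI peaks. Absent from KO were then 1 WT and 10 KI peaks, from WT 4 KO and 12 KI peaks, and from KI 1 WT and 2 KO peaks, and 6 regions had all 3 lists. With a flank of 100 kb there were 41, 38 and 73, with 14 WT and 39 KI peaks absent from KO, 37 KI peaks absent from WT and 25 regions in all 3 lists. At a score minimum of 100 there were 5, 7 and 17. Absent from KO were then 1 WT and 11 KI peaks, from WT 3 KO and 12 KI peaks, and from KI 0 WT and 1 KO peaks, with 4 regions in all 3 lists. A start peak was then left at 1 of the 10 genes in WT, 1 in KO and 4 in KI. Gata3 kept one in every list, and Notch1, Id2 and Eomes had one in KI alone. Among the other T and NK genes it was left at 7 in WT, 9 in KO and 10 in KI. With lists of equal length KI had 21 peaks. Absent from KI were then 7 WT and 8 KO peaks, and 6 KI peaks were absent from WT and 9 from KO. Start peaks within 500 bp stood at 2 of the 10 genes in KO and 3 in KI. Fewer peaks enter with a shorter flank, a higher minimum or a shortened list by construction, and for the rest the cause was not tested. An overlap of 50%, widening by 500 bp and a start distance of 2500 bp moved no count by more than 1.5 times. Whole-list shares of absent peaks under the alternatives are not given here. No paired analysis was possible because each genotype had 1 ATAC-seq library and no test was made. Depth is unknown, so an absent peak is one not called, not closed chromatin.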

Other observations

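Several KI peaks had the same width and score. The KI list held 14 peaks of exactly 200 bp, and 2 of these lay in the windows of the 10 genes, inside Tcf7 and at Kidins220 near Id2. Both had a score of 64.90, which 86 KI peaks, 4 WT peaks and 1 KO peak shared. WT had no peak of that width and KO had 6, none of them in these windows.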
